A study of Drosophila melanogaster with 2 samples.

Results

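The *Drosophila* ovary holds follicle epithelial cells that carry RNA of *Asph*, *Obp99a*, *eya* and the Notch target *E(spl)m7-HLH*, and 728 such cells among 19009 kept barcodes are described here. They were chosen by detection. A barcode entered when it had at least 1 unique molecular identifier (UMI, one counted RNA molecule) of each of these 4 genes and 0 UMIs of *mid*, *zfh1* and *sti*, after filters of at least 500 genes, at least 1000 UMIs and at most 20% of UMIs from mitochondrially encoded genes. At 1 week 342 of 9131 kept barcodes were inside this gate, and at 6 weeks 386 of 9878. They are called gated cells below, and all remaining kept barcodes are called other barcodes.

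Ovaries came from *w1118(x);;* females that had been kept with males until 1 week or 6 weeks after eclosion, and the labels name no treatment, so the groups differed in age alone by their labels. Dissociated ovarian cells were loaded on the 10x Genomics 3′ single-cell platform, and 1 library per age was analysed here. Anterior ovary structures had not been enriched, because aged ovaries were too fragile for it. With 1 library per age nothing could be tested: age and library, with any difference in kit version between them, cannot be told apart. The study mentions replicates of these libraries, the counts carry no mark of them, and either library may hold several. Every interval below covers counting error only.

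Follicle cells form the single-layered epithelium around each germline cyst. In young egg chambers they divide, and later the germline ligand Delta activates the receptor Notch, the E(spl) genes are transcribed, and the cells leave the mitotic cycle for the endocycle, in which DNA is copied without division. That switch is known to involve repression of *stg* (the Cdc25 phosphatase that starts mitosis) and *ct* (a homeodomain factor of undifferentiated follicle cells), and induction of *peb* (the zinc finger factor Hindsight) and *fzr* (an activator of the anaphase-promoting complex). Eya is a follicle fate factor that is repressed in polar cells. Asph is an aspartyl beta-hydroxylase homolog, and Obp99a belongs to the odorant binding proteins, small secreted carriers that are also made outside the nose.

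The 4 required genes were enriched by construction, and their values describe the gate. In summed counts *Asph* stood at 380 CPM (counts per 1000000 UMIs, summed over all gated cells) at 1 week and 338 at 6 weeks, against 51.9 and 62.9 in other barcodes. *Obp99a* stood at 640 and 709 CPM against 121 and 142. *eya* stood at 206 and 208 CPM against 84.1 and 99.997, and *E(spl)m7-HLH* at 329 and 315 CPM against 79.6 and 95.4. Many cells lay just inside the threshold: 94 of the 342 cells at 1 week and 67 of the 386 at 6 weeks held a single UMI of *eya*, and 65 and 79 cells held a single UMI of *E(spl)m7-HLH*. Just outside it, 185 and 203 barcodes met every other condition with 0 UMIs of *E(spl)m7-HLH*, 163 and 207 with 0 of *Asph*, 89 and 98 with 0 of *Obp99a*, and 72 and 39 with 0 of *eya*. A gate on single UMIs depends on depth. The median gated cell had 11992.5 UMIs at 1 week and 15358 at 6 weeks, and the median other barcode 10485 and 12266.

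Gated cells were 3.75% of kept barcodes at 1 week (exact binomial 95% interval 3.37 to 4.16) and 3.91% at 6 weeks (3.53 to 4.31), intervals that overlapped. With each barcode thinned to 5000 UMIs before gating, the shares were 2.63% (2.26 to 3.04) and 3.18% (2.78 to 3.62). The steps of the gate show where barcodes left. All 4 genes were found in 731 barcodes at 1 week and 1031 at 6 weeks. The condition on *mid*, a T-box factor gene, left 424 and 537, that on *zfh1* left 394 and 493, and that on *sti*, which encodes the cytokinesis kinase Citron, left 342 and 386. No barcode sequence was gated in both libraries, and 26 barcode sequences were kept in both.

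Markers of other body cells and of late follicle cells were mostly low as summed lists. The 9 gut markers summed to 4.75 CPM at 1 week and 4.89 at 6 weeks in gated cells, against 407 and 149 in other barcodes. The 11 muscle markers summed to 80.7 and 66.9 CPM against 405 and 681, the 8 hemocyte markers to 55.1 and 62.9 against 119 and 126, and the 9 late follicle cell markers to 298 and 252 against 5762 and 3548. The sums of germ cell and fat body markers did not follow this. Germ cell markers summed to 164 and 172 CPM against 159 and 141, with at most 578 and 674 CPM in any gated cell. Most single germ cell markers were low, however. Of 9 tested, 7 at 1 week and 6 at 6 weeks were at least 0.5 lower on the log2 scale and 1 was higher, with medians of -3.04 and -2.86. All marker counts here are to be read beside the shares of all genes. By that fold 27.9% of all genes were lower at 1 week and 27% at 6 weeks, and 8.68% and 6.93% were higher. The 6 fat body markers summed to 33.6 and 31.2 CPM against 24.4 and 23.8, with 1 of 2 tested higher and 1 lower at each age. Among ovarian somatic lists, the 7 polar and stalk cell markers summed to 1002 and 1041 CPM against 1079 and 1400, and 65.8% and 81.6% of gated cells held at least 10 of their UMIs against 49.98% and 65.4% of other barcodes. Of these 7 markers, 4 were at least 0.5 lower on the log2 scale at each age, with medians of -1.13 and -1.40. The 2 that were higher were *CadN* and *Dl*. Escort cell markers summed to 303 and 280 CPM against 419 and 498, stem and precursor cell markers to 463 and 535 against 944 and 1239, and border and anterior cell markers to 298 and 297 against 453 and 478. The stem and precursor list holds the barred *zfh1*, so part of its gap was set by the gate. Without *zfh1*, 4 of its 5 tested markers were at least 0.5 lower on the log2 scale at each age, with medians of -0.65 and -0.62. The part of these markers in the results was not tested. Cells with at least 10 UMIs of a list numbered 4 and 8 for muscle, 2 and 10 for germ cells and 0 and 2 for hemocytes. A simulated-doublet score was set to mark 13.3% of all kept barcodes at 1 week and 8.09% at 6 weeks, shares fixed beforehand by the number of deposited barcodes. Among the marked barcodes were 32 gated cells at 1 week and 22 at 6 weeks, 9.36% and 5.70% of the gated cells.

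The label of these cells as Notch-responding was set against the rest of the E(spl) complex, a cluster of basic helix-loop-helix repressor genes and Bearded family genes on chromosome arm 3R (BDGP6.54, from 25997621 at the start of *E(spl)mdelta-HLH* to 26041008 at the end of *E(spl)m8-HLH*), in which *E(spl)m7-HLH* lies from 26037038 to 26038019. *E(spl)m3-HLH*, a repressor gene at 26021823 to 26023127, stood at 655 CPM at 1 week and 606 at 6 weeks against 407 and 380 in other barcodes, a log2 ratio of 0.69 (0.63 to 0.74) and 0.67 (0.63 to 0.72). *E(spl)m2-BFM*, a Bearded family gene, stood at 115 and 105 CPM against 44.2 and 48.6, 1.38 (1.25 to 1.50) and 1.11 (0.99 to 1.22) higher on the log2 scale. Both were past the fold used here, a log2 ratio of at least 0.5 among genes with at least 100 UMIs over the compared barcodes. *E(spl)mbeta-HLH*, the most abundant member, was within it at 822 and 783 CPM against 676 and 624 (log2 0.28 and 0.33), and as a mean of single-cell CPM values its ratio was -0.02 and 0.10. *E(spl)malpha-BFM* was lower, at 28.9 and 20.8 CPM against 42.0 and 32.6. The remaining members had fewer than 100 UMIs over both libraries in gated cells, *Kaz-m1*, listed as *E(spl)m1*, among them. *E(spl)m6-BFM* gave 40 and 25 UMIs, *E(spl)mgamma-HLH* 22 and 9, *E(spl)m8-HLH* 3 and 17, *E(spl)m5-HLH* 8 and 8, and *E(spl)mdelta-HLH* 3 and 3. *E(spl)m4-BFM* had 0 UMIs at both ages, where 3 UMIs would be 0.619 and 0.458 CPM.

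Across the list, 3 of 7 tested E(spl) genes were higher than in other barcodes at 1 week and 2 lower, and 3 of 8 were higher at 6 weeks and 3 lower. Besides *E(spl)m3-HLH* and *E(spl)m2-BFM*, the higher ones were members with fewer than 100 UMIs in gated cells. Of all genes, 8.68% were higher and 27.9% lower by the same fold at 1 week, and 6.93% and 27% at 6 weeks. Other barcodes include muscle, gut, germ and late follicle cells. Thinned to 5000 UMIs, *E(spl)m3-HLH* was detected in 92.0% of gated cells at 1 week and 91.6% at 6 weeks, against 71.8% and 69.6% of other barcodes. Free RNA was read in muscle barcodes, with at least 5 UMIs of the muscle myosin gene *Mhc* and at least 1 each of *Mlc2* and *up*. They numbered 222 and 347, with median depths of 2589 and 3308 UMIs before thinning. Only the 30 and 91 of them that reached 5000 UMIs could be thinned, and these gave 30% and 20.9% for *E(spl)m3-HLH*. Whether these deepest muscle barcodes also held RNA of a second cell was not tested. *E(spl)m2-BFM* was found in 30.1% and 31.7% of thinned gated cells against 14.9% and 16.6% of other barcodes and 3.33% and 3.3% of muscle barcodes. Without thinning, 98.8% and 98.7% of gated cells had a UMI of *E(spl)m3-HLH*, and 45.6% and 50% one of *E(spl)m2-BFM*.

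The receptor and its ligand were both high. *N* itself stood at 1080 CPM at 1 week and 985 at 6 weeks against 579 and 606 in other barcodes (log2 0.90 and 0.70), and in single cells its median was 1108 and 996 CPM with 0 and 1 cells lacking it. *Dl*, which encodes Delta, stood at 320 and 280 CPM against 191 and 167 (log2 0.75 and 0.74). *kuz*, the protease gene of receptor cleavage, did not separate the cells at 361 and 482 CPM against 360 and 480. Of 19 genes of the receptor, ligand and processing list, 4 were higher and 1 lower at 1 week, and 2 higher and 4 lower at 6 weeks. Beside them, 8.68% of all genes were higher and 27.9% lower at 1 week, and 6.93% and 27% at 6 weeks. *Hesr*, a bHLH repressor gene of the Hey and E(spl) families, went the other way, at 40.3 and 35.9 CPM against 77.6 and 81.3 (log2 -0.95 and -1.18).

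The genes of the cell cycle switch did not have the values known for cells past it. *stg* stood at 1469 CPM at 1 week and 1302 at 6 weeks against 465 and 467 in other barcodes, log2 1.66 (1.62 to 1.69) and 1.48 (1.45 to 1.51). Its lowest, median and highest single-cell values were 97.7, 1402 and 5463 CPM at 1 week and 0, 1272 and 5238 at 6 weeks, and 3 cells of the 728, all at 6 weeks, had none. At 5000 UMIs *stg* was detected in 98.5% and 95.5% of gated cells, 65.2% and 64.7% of other barcodes and 30% and 30.8% of muscle barcodes. *ct* stood at 1139 and 1058 CPM against 588 and 625, log2 0.95 (0.91 to 0.99) and 0.76 (0.72 to 0.79), with single-cell medians of 1178 and 1155. *peb*, which the switch induces, was near the other barcodes at 548 and 544 CPM against 484 and 459. *fzr* was below them, at 37.2 and 42.1 CPM against 62.2 and 55.5 (log2 -0.74 and -0.40). *stg* and *ct* were thus high together with *E(spl)m3-HLH* and *E(spl)m2-BFM*. The label of Notch response, read as a completed switch, went against *stg*, *ct* and *fzr*, and the cells are named by their genes here. These values were measured after the condition on *mid* had removed barcodes. Those with the 4 genes plus *mid* had *fzr* at 67.2 and 71.8 CPM, *peb* at 668 and 636, *ct* at 801 and 759 and *stg* at 1297 and 1240. The part of that condition in the switch values was not tested.

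**Figure D1:**
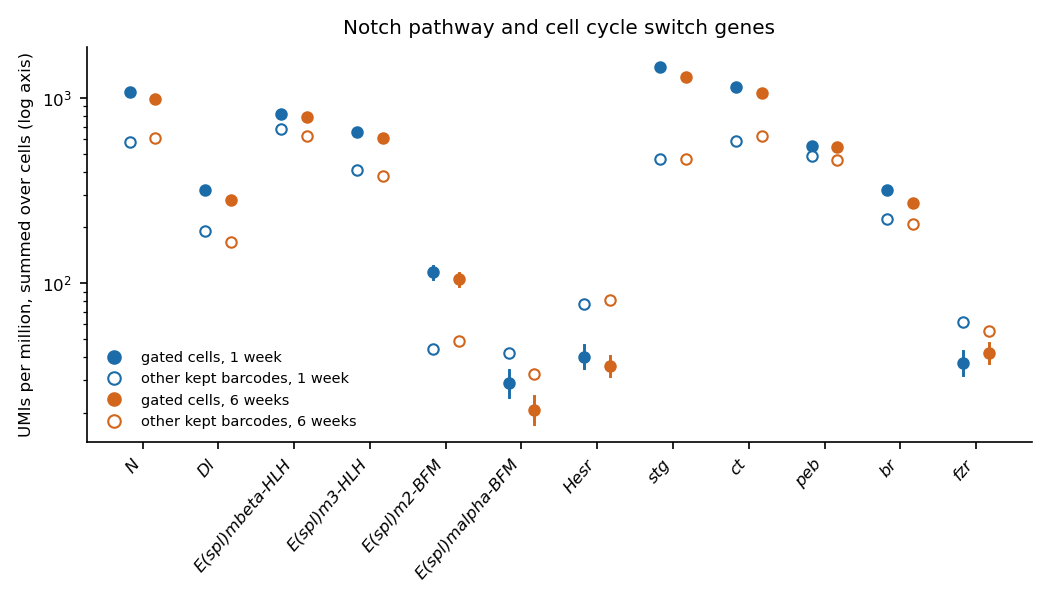
Summed CPM (log axis) of 12 Notch pathway and switch genes in gated cells (filled, with 95% counting intervals) and other barcodes (open), at 1 week (blue) and 6 weeks (orange). *stg* at 1469 and 1302 and *ct* at 1139 and 1058 lie well above the open points, *peb* lies close to them, and *Hesr* and *fzr* lie below.

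Genes of mitosis were higher as a group. Of 25 tested genes of the mitosis list, 21 were past the fold at 1 week and 21 at 6 weeks, with 0 and 1 lower, and their median log2 ratio was 0.92 and 0.70. Of all genes 8.68% and 6.93% were higher and 27.9% and 27% lower. The list summed to 3113 and 2926 CPM against 1470 and 1526 in other barcodes, with the barred *sti* counted only in the latter, and *stg* was the largest single part. *aurB*, the Aurora B kinase gene, stood at 65.0 and 48.6 CPM against 23.2 and 27.4 (log2 1.48 and 0.82). *polo*, which encodes the Polo kinase, stood at 46.4 and 37.3 against 18.1 and 22.9 (log2 1.36 and 0.70). *fzy*, the Cdc20 gene, stood at 30.6 and 29.5 against 12.0 and 15.5, and *Cdk1*, the mitotic kinase gene, at 67.3 and 67.5 against 38.4 and 43.4. The mitotic cyclin gene *CycB* was within the fold at both ages (log2 0.24 and 0.36), as was *Bub1* (-0.21 and -0.10). At 5000 UMIs *aurB* was detected in 22.7% and 19.0% of gated cells, 10.2% and 11.9% of other barcodes and 0% and 4.4% of muscle barcodes. Most gated cells thus had no UMI of *aurB* at this depth.

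Other barcodes with at least 1 UMI of *eya* are closer relatives, 4411 at 1 week and 5294 at 6 weeks with median depths of 12689 and 16225.5 UMIs. This comparison was chosen after seeing the data. Against them 20 of the 25 mitosis genes were higher at 1 week but 9 of 25 at 6 weeks, with medians of 0.69 and 0.42, where 7.4% and 4.64% of all genes were higher and 13.9% and 15.1% lower. *stg* was 1.28 and 1.17 above them on the log2 scale, *E(spl)m2-BFM* 0.96 and 0.77, and *N* 0.67 and 0.51. *ct* was past the fold at 1 week (0.70) and just within it at 6 weeks (0.499). *E(spl)m3-HLH* (0.40 and 0.47) and *Dl* (0.47 and 0.46), past the fold against all other barcodes, were within it here. Fewer genes of S phase were past the fold: 9 of 26 were higher than in all other barcodes at 1 week and 6 of 26 at 6 weeks, with none lower, beside 8.68% and 6.93% of all genes. Against barcodes with *eya* 5 of 26 and 2 of 26 were higher. *PCNA*, the replication clamp gene, was at 0.63 and 0.44 against all other barcodes, the second within the fold.

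**Figure D2:**
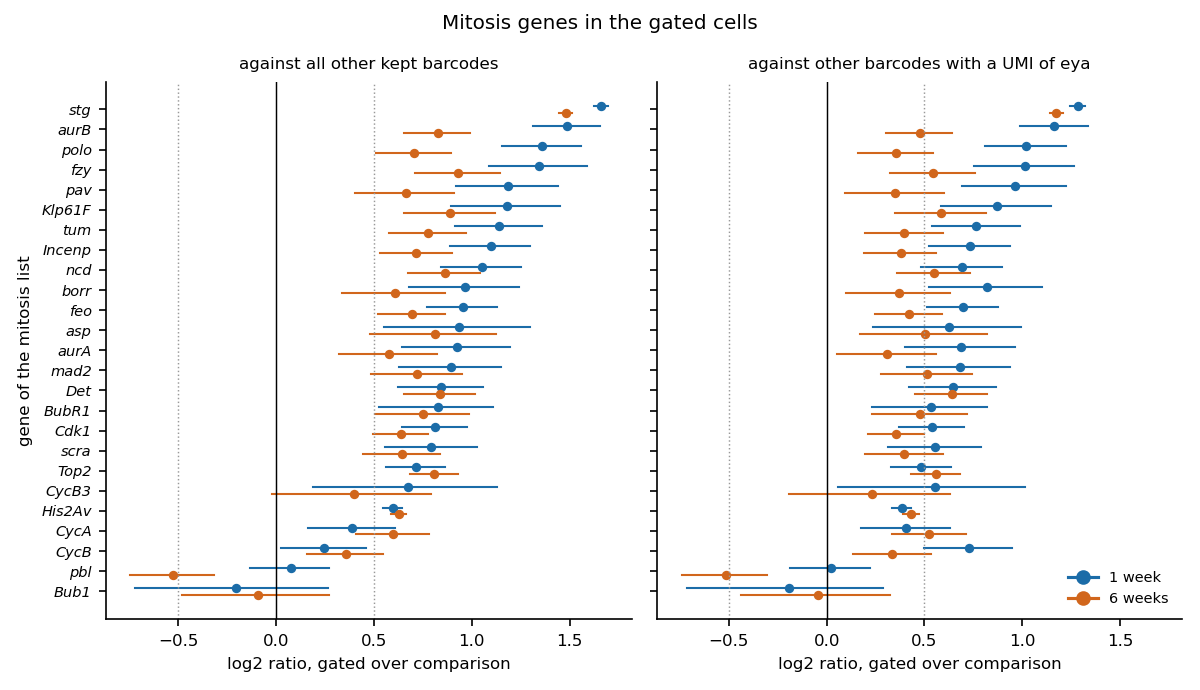
Log2 ratio of each mitosis gene in gated cells over all other barcodes (left) and over other barcodes with a UMI of *eya* (right), with 95% counting intervals, at 1 week (blue) and 6 weeks (orange); dotted lines mark 0.5 in each direction. On the left 21 of 25 genes lie past 0.5 at each age, and on the right 20 and 9 do.

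Outside these lists, several genes stood far above other barcodes at both ages. *qtc* stood at 99.3 CPM at 1 week and 80.2 at 6 weeks against 24.5 and 19.95 (log2 2.02 and 2.01). *Ugt317A1*, a UDP-glycosyltransferase gene, stood at 163 and 166 against 39.4 and 46.4, and *sei*, which encodes an ERG-type potassium channel, at 46.0 and 36.8 against 9.48 and 11.3. The growth-blocking peptide genes *Gbp1* and *Gbp2*, which encode insect cytokines, were both among them, at 127 and 122 CPM against 36.5 and 36.5 for *Gbp1* and 29.7 and 27.5 against 8.18 and 9.93 for *Gbp2*. *Idgf3*, a chitinase-like secreted growth factor gene, stood at 467 and 437 against 165 and 161. *Uvrag*, an endosome and autophagy gene, stood at 97.0 and 102 against 26.6 and 30.8. A second odorant binding protein gene, *Obp44a*, stood at 341 and 300 CPM against 94.9 and 105 (log2 1.85 and 1.51). At 5000 UMIs *Obp44a* was in 36.3% and 38.0% of gated cells, 16.9% and 18.8% of other barcodes and 3.33% and 6.59% of muscle barcodes, so most gated cells had no UMI of it at that depth.

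Adhesion genes differed in direction. *CadN*, the N-cadherin gene of young follicle cells, stood at 313 CPM at 1 week and 301 at 6 weeks against 92.4 and 126 (log2 1.76 and 1.26). *Fas2*, an immunoglobulin adhesion gene, stood at 984 and 963 against 675 and 657. *Fas3* was low at 228 and 300 CPM against 501 and 791 (log2 -1.13 and -1.40). It is on the lists of stem, precursor, polar and stalk cells here. The study also used it to identify follicle cells, its early to mid cluster included, so this follicle marker went the other way. The lowest ratios belonged to products of older or other cells. The yolk protein genes *Yp1* and *Yp2* were at -6.48 and -6.10 on the log2 scale at 1 week and at -6.83 and -6.32 at 6 weeks, the metallothionein gene *MtnA* at -3.53 and -3.91, the immune-induced *vir-1* at -4.15 and -3.001, and the scavenger receptor gene *crq* at -2.34 and -2.07. *klu*, a zinc finger factor gene, was higher (0.91 and 1.04), and *tj*, the Maf factor gene of somatic gonad cells, was within the fold (0.27 and 0.34).

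The gated cells were not uniform, and *br*, the Broad zinc finger gene that rises in older main body follicle cells, ordered them. This split was chosen after seeing the data, and it separates cells by detection of a single gene. At 1 week 61 cells had 0 UMIs of *br*, 98 had 1 or 2 and 183 had at least 3, and at 6 weeks 63, 94 and 229 did, with median depths between 11431.5 and 12403 UMIs at 1 week and between 13977 and 15568 at 6 weeks. Cells without *br* were higher in *ct*, at 1633 and 1488 CPM against 942 and 886 in cells with at least 3 UMIs (log2 0.79 and 0.75). They were lower in *peb*, at 285 and 340 CPM against 665 and 619 (log2 -1.22 and -0.86), and lower in *fzr*, at 15.4 and 24.5 against 43.7 and 50.8. *Hesr* was lower in cells without *br*, at 2.57 and 12.3 CPM (2 and 11 UMIs) against 59.1 and 44.3. *stg* did not follow them, at 1424 and 1180 CPM without *br* and 1482 and 1367 with at least 3 UMIs.

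The E(spl) genes split along the same line. *E(spl)m2-BFM* was higher in cells without *br*, at 189 CPM at 1 week and 212 at 6 weeks against 80.8 and 66.4 (log2 1.22 and 1.67), whereas *E(spl)m3-HLH* stood at 667 and 723 against 646 and 580 and was within the fold. *SPARC*, which encodes a collagen-binding protein of the basement membrane, was at 258 and 267 CPM without *br* and at 47.2 and 64.5 with it. *Fas2* was at 1466 and 1405 against 829 and 800, and *CadN* at 391 and 480 against 257 and 237. *aurB* was at 115 and 55.7 CPM against 43.4 and 42.2, past the fold at 1 week and within it at 6 weeks. *sosie*, a transmembrane protein gene, and *ndl*, which encodes the eggshell protease Nudel, went with *br*, *sosie* at 545 and 474 CPM against 253 and 96.9 and *ndl* at 78.7 and 88.2 against 6.41 and 27.9.

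**Figure D3:**
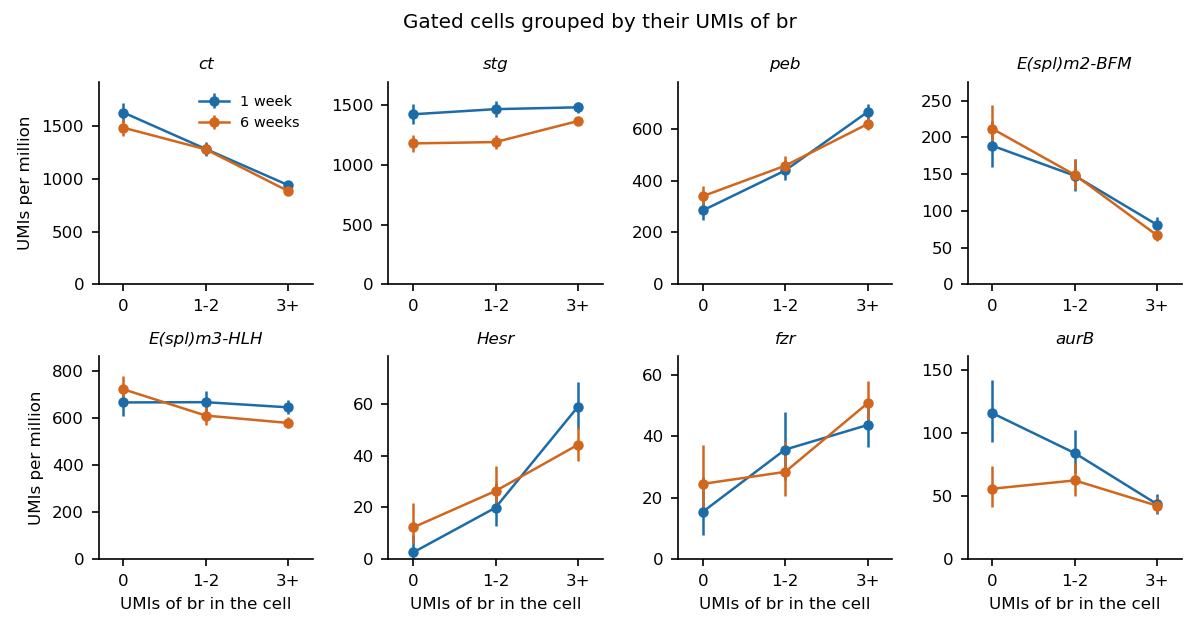
Summed CPM of 8 genes in gated cells with 0, 1 or 2, or at least 3 UMIs of *br* (x axis), at 1 week (blue) and 6 weeks (orange), with 95% counting intervals. *ct* and *E(spl)m2-BFM* are highest in cells without *br*, *peb*, *Hesr* and *fzr* are highest in cells with at least 3 UMIs, and *stg* stays between 1180 and 1482 in the outer classes.

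The level of *E(spl)m7-HLH* itself gave an order that was similar in part, again in a split chosen after seeing the data. Cells with at least 7 UMIs of *E(spl)m7-HLH*, 78 at 1 week and 123 at 6 weeks, were compared with the 65 and 79 cells with 1 UMI. *E(spl)m2-BFM* stood at 160 and 161 CPM in the first against 51.3 and 28.9 in the second (log2 1.64 and 2.48). *E(spl)m3-HLH* stood at 779 and 719 against 529 and 436 (log2 0.56 and 0.72), and *E(spl)mbeta-HLH* at 989 and 815 against 714 and 669, within the fold (0.47 and 0.29). The split uses a gene of the gate, so these values are a description. *ct* was also higher, at 1262 and 1209 CPM against 893 and 825 (log2 0.499 and 0.55, the first just within the fold), and *fzr* was lower, at 30.5 and 35.7 against 52.5 and 55.7. *Hsp26*, a small heat shock protein gene, was at 4870 and 4753 against 3232 and 3059. *stg* was level at 1 week, at 1447 against 1402 CPM, and higher at 6 weeks, at 1477 against 945. Other genes departed from the order by *br*: *peb* was within the fold (-0.36 and -0.18), and *Hesr* was at -0.69 and -0.10. The mitosis genes *aurB* (0.18 and 1.01), *polo* (0.35 and 1.06) and *CycB* (0.38 and 1.14) were past the fold at 6 weeks only. Median depths were 13827 and 15682 UMIs in the first cells and 11336 and 15354 in the second, and the part of depth in these differences at 1 week was not tested.

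*Ilp6*, an insulin-like peptide gene, marked a further difference within the gated cells, in a split that was likewise chosen after seeing the data. It was detected in 165 of 342 cells at 1 week and 181 of 386 at 6 weeks. *DOR*, a regulator of autophagy and ecdysone signalling, was higher in the cells with *Ilp6*, at 293 and 202 CPM against 93.1 and 90.4 (log2 1.65 and 1.16). *CG8034* was higher too, at 453 and 453 CPM against 201 and 218. *br* was lower in the cells with *Ilp6*, at 228 and 207 CPM against 416 and 338, and *SPARC* was higher, at 145 and 159 against 62.7 and 77.9. Not every gene that separated the cells by *br* followed: *Obp44a*, lower without *br*, was higher with *Ilp6* at 1 week (0.58) and lower at 6 weeks (-0.82), and *sosie* was at -0.40 and 0.42.

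Barcodes just outside the gate showed what the conditions on *mid*, on *sti* and on the 4 required genes kept out. Barcodes with the 4 genes plus *mid* numbered 239 at 1 week and 378 at 6 weeks, with median depths of 15201 and 17386.5 UMIs, above those of the gated cells. In them *Hesr* stood at 166 and 167 CPM, against 40.3 and 35.9 in gated cells, *aurB* at 28.2 and 29.8 against 65.0 and 48.6, *ct* at 801 and 759 against 1139 and 1058, and *sosie* at 716 and 686 against 405 and 390. *stg* was slightly below the gated cells there, at 1297 and 1240 CPM (gated over these barcodes, log2 0.18 and 0.07, within the fold). *E(spl)m3-HLH* stood at 750 and 636 CPM in them (log2 -0.20 and -0.07), *E(spl)mbeta-HLH* at 837 and 773, and *Dl* at 327 and 286. All 3 were within the fold, so these genes did not set the gated cells apart from the barcodes with *mid*. Barcodes with the 4 genes plus *sti*, 52 and 107 of them, were enriched in mitotic RNA, with *aurB* at 173 and 135 CPM, *CycB* at 127 and 112 and *polo* at 114 and 104. The condition on *sti* therefore took out barcodes rich in mitotic transcripts, and the mitosis values of the gated cells were measured after that removal.

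Barcodes that failed for lack of *E(spl)m7-HLH* alone had depths close to the gated cells, with medians of 11893 and 14879 UMIs. Their *E(spl)m2-BFM* stood at 23.7 and 25.6 CPM (gated over these barcodes, log2 2.27 and 2.03) and their *E(spl)m3-HLH* at 521 and 408 (log2 0.33 and 0.57). *ct* stood at 714 and 763 CPM and *stg* at 1039 and 805, both below the gated cells, while *peb* stood at 702 and 645 and *sosie* at 1110 and 1077, above them. Gated cells as a whole thus had more *E(spl)m2-BFM*, *ct* and *stg* and less *sosie* than these barcodes, while the gated cells with 1 UMI of *E(spl)m7-HLH* were close to them in *E(spl)m2-BFM* at 6 weeks, at 28.9 CPM. Barcodes lacking only *Asph* had *stg* at 724 and 709 CPM (gated over these barcodes, log2 1.02 and 0.88). Their *ct*, at 1295 and 1262 CPM, was above that of the gated cells. Those lacking only *Obp99a* had *stg* at 988 and 1056 and *ct* at 1132 and 1062. Those lacking only *eya* had *stg* at 1503 and 1306 and *ct* at 1049 and 794. High *E(spl)m2-BFM* did not set the gated cells, at 115 and 105 CPM, apart from all neighbours. It stood at 152 and 146 without *Asph* (gated over these barcodes, log2 -0.403 and -0.474). With the 4 genes it was 133 and 133 plus *sti* and 179 and 112 plus *zfh1*. Gated cells were above barcodes lacking only *eya* (1.11 and 1.32) or with *mid* (0.33 and 0.596). The ratio was 0.39 and -0.0597 without *Obp99a*.

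**Figure D4:**
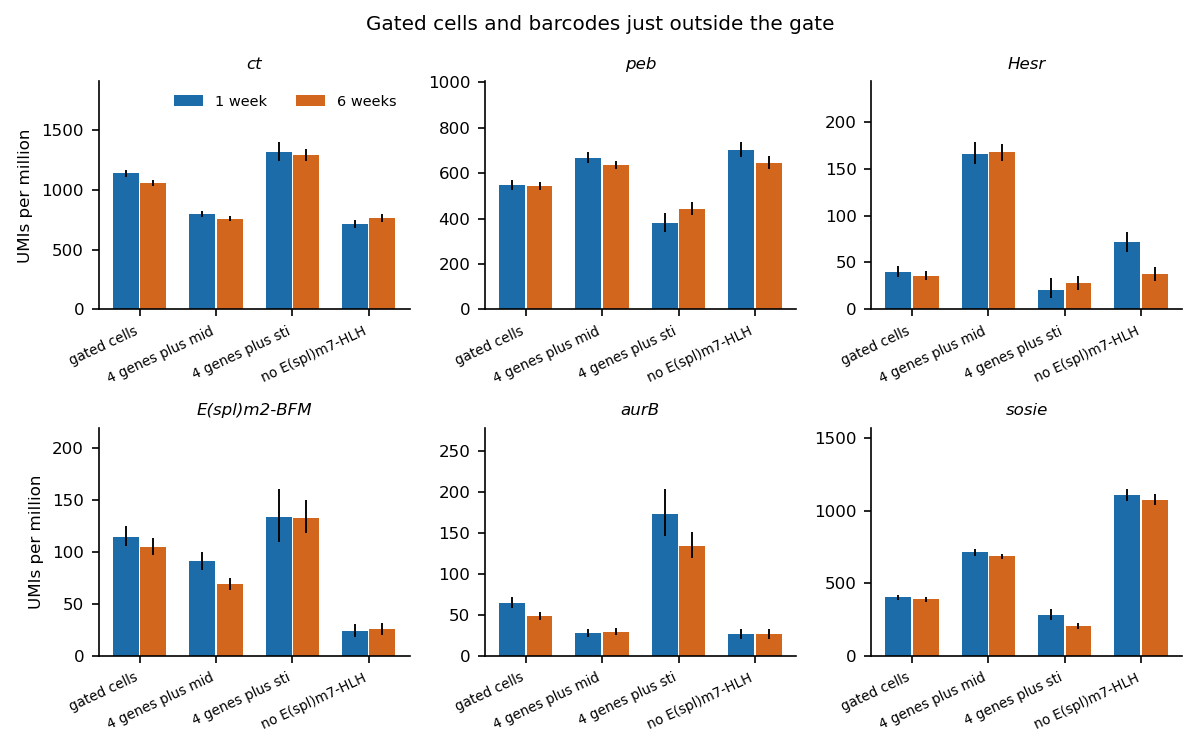
Summed CPM of 6 genes in gated cells, in barcodes with the 4 genes plus *mid* or plus *sti*, and in barcodes lacking only *E(spl)m7-HLH*, at 1 week (blue) and 6 weeks (orange), with 95% counting intervals. *Hesr* is highest with *mid* (166 and 167), *aurB* with *sti* (173 and 135), and *sosie* without *E(spl)m7-HLH* (1110 and 1077).

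The age comparison asked which transcripts of these cells differed between 1 week and 6 weeks. The Notch and switch genes with at least 100 UMIs stayed within the fold. Members with fewer UMIs, among them *E(spl)m6-BFM*, *E(spl)mgamma-HLH*, *E(spl)m8-HLH* and *Kaz-m1*, were not called in either direction. *E(spl)m3-HLH* had a log2 ratio of 6 weeks over 1 week of -0.11 (-0.18 to -0.04), *E(spl)mbeta-HLH* of -0.07, *E(spl)m2-BFM* of -0.13 and *E(spl)malpha-BFM* of -0.48 (-0.83 to -0.13). *N* was at -0.13, *Dl* at -0.19, *stg* at -0.17 (-0.22 to -0.13), *ct* at -0.11, *peb* at -0.01 and *fzr* at 0.18. Several of these intervals lay below 0 by a small amount, and the other barcodes gave 0.06 for *N*, 0.01 for *stg* and 0.09 for *ct*. Of 4 E(spl) genes, 16 receptor and processing genes, 7 nuclear factor genes and 12 switch genes with at least 100 UMIs, none passed the fold in either direction, where 3.11% of all 5177 genes rose and 2.43% fell. The largest of the 16 was *kuz*, at 0.42 in gated cells and 0.41 in other barcodes.

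Genes of mitosis had a median age ratio of -0.11 in gated cells and 0.13 in other barcodes. Of 24 mitosis genes 1 fell, *pbl*, a cytokinesis gene, from 43.8 to 28.3 CPM (log2 -0.63, interval -0.92 to -0.34, other barcodes -0.03). *mud*, which encodes a spindle orientation protein, fell from 49.3 to 28.4 CPM (-0.80, interval -1.08 to -0.51, other barcodes -0.12), and was at -0.41 with barcodes thinned before gating. *aurB* was at -0.42 and *polo* at -0.32, both within the fold, where other barcodes had 0.24 and 0.34. Of 22 S phase genes 2 fell, *Mcm5* (-0.51, on 104 and 99 UMIs) and *Orc1* (-0.58, on 62 and 56 UMIs). The differences between gated cells and other barcodes in these ratios had no replicate check.

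Over all genes 161 of 5177 rose and 126 fell, and the counting interval lay on the same side of 0 for 143 and 114 of them. The median log2 ratio was 0.01, and the 5th and 95th percentiles were -0.39 and 0.42. Among the risen genes 133 had the same sign in other barcodes and 35 passed the fold there, and among the fallen genes 102 and 12 did.

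*daw*, which encodes the activin-like ligand Dawdle, rose most among genes with at least 200 UMIs, from 12.4 to 45.7 CPM (log2 1.88, 1.48 to 2.31), against 0.69 in other barcodes. The top 3 cells held 27.1% of its UMIs at 6 weeks, and the ratio was 1.38 when cells with markers of muscle, hemocytes, germ cells or much *vir-1* were left out, an alternative chosen after seeing the data. *ImpL2*, which encodes a secreted antagonist of insulin-like peptides, rose from 68.3 to 176 CPM (log2 1.36, other barcodes 0.67), with 31.5% of its 6-week UMIs in 3 cells. Without barcodes above the 95th percentile of UMIs it was 0.86. *CG32512* rose from 55.3 to 140 CPM (1.34, other barcodes 1.48) and *Swip-1* from 41.7 to 89.3 (1.10, other barcodes 0.79), with 10.7% and 6.32% of their 6-week UMIs in 3 cells. *spz*, the Toll ligand gene, rose from 19.2 to 40.3 CPM (1.07, other barcodes 0.29). *vir-1* stood at 1.55 and *CG15347* at 1.49, but 3 cells held 41.2% and 68.6% of their 6-week UMIs. Thinned before gating, *vir-1* was at -0.21 and *CG15347* at 0.29.

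Among the genes that fell, *CG8745* went from 34.5 to 15.3 CPM (log2 -1.17, interval -1.55 to -0.81, other barcodes -0.83) and *Den1*, a deneddylase gene, from 80.1 to 44.1 (-0.86, other barcodes -0.73). *cbt*, a zinc finger factor gene, fell from 64.0 to 35.6 (-0.85, other barcodes -0.47), and *MtnA* from 57.4 to 33.8 (-0.77, other barcodes -0.39). *CG12822* fell by 0.84 on the log2 scale where other barcodes had -0.13. The sign differed from that of other barcodes for *NLaz*, a lipocalin gene, at 0.62 against -0.26, and for *CG5171* at -0.61 against 0.33. Neither was tested.

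**Figure D5:**
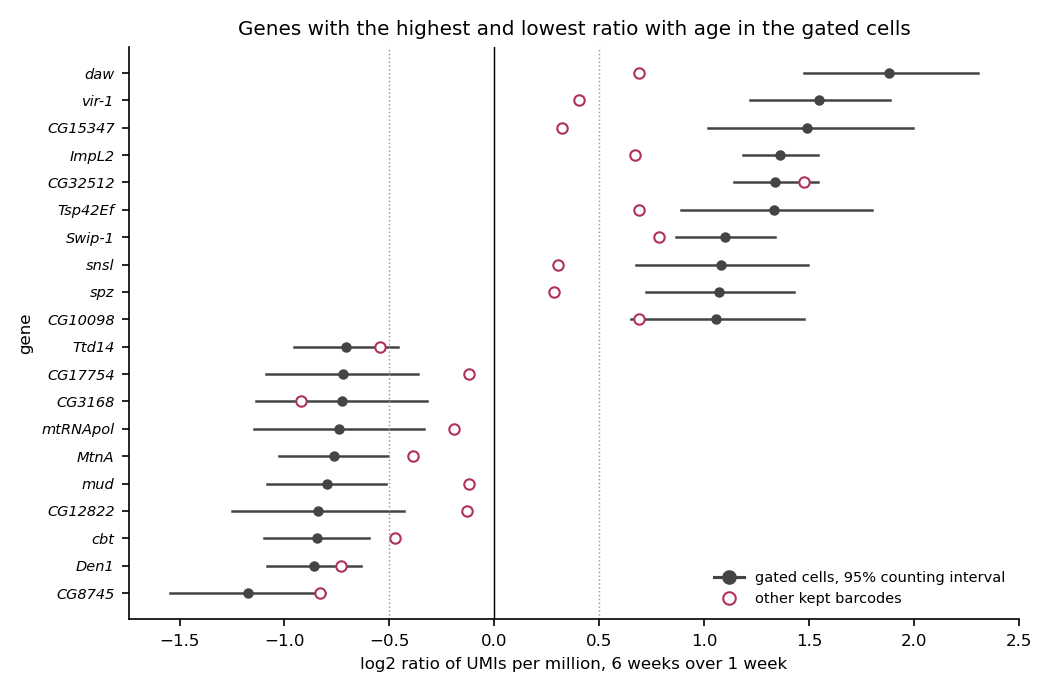
Log2 ratio of CPM, 6 weeks over 1 week, for the 10 genes with the highest and the 10 with the lowest ratio in gated cells (filled, 95% counting intervals) and for the same genes in other barcodes (open, red); dotted lines mark 0.5 in each direction. *daw* leads at 1.88 against 0.69 in other barcodes, and *CG8745* is lowest at -1.17 against -0.83.

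The stress, immune and metabolic lists named next held 1 or 2 called genes each, to be read beside the 3.11% of all genes that rose and the 2.43% that fell. Of 13 genes of the JNK stress list 2 rose, *Ets21C*, an ETS factor gene downstream of JNK, from 4.33 to 23.7 CPM (log2 2.45, 1.79 to 3.18, other barcodes 1.19) on 21 and 155 UMIs, and *Mmp1*, a matrix metalloprotease gene, from 23.1 to 42.0 CPM (0.86, other barcodes 0.44). The list median was 0.32 in gated cells and 0.34 in other barcodes. Of 15 Imd and Toll regulator genes 2 rose, *spz* and *key* (0.68, other barcodes 0.14). In glycolysis 1 of 14 rose, *Ldh*, the lactate dehydrogenase gene, at 1.00 on 36 and 97 UMIs where other barcodes had -0.76. In autophagy 1 of 14 fell, *Atg2*, from 14.0 to 7.02 CPM (-0.999, other barcodes -0.17). In the heat shock list 1 of 15 fell, *Hsp70Ab*, from 554 to 363 CPM (-0.61, other barcodes -0.53).

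No gene passed the fold with age among 13 follicle fate factors, 15 EGFR pathway genes, 8 JAK/STAT genes, 24 junction and polarity genes, 9 DNA damage genes, 10 cell death genes, 16 endoplasmic reticulum genes, 84 cytoplasmic and 72 mitochondrial ribosomal protein genes. Of 20 basement membrane genes 1 rose, *Mmp1*, and of 16 ecdysone response genes 1 rose, *ImpL2*. Both tested yolk protein genes fell, *Yp2* from 43.3 to 26.9 and *Yp1* from 14.0 to 9.16 CPM, far below their level of 2977 and 2149 CPM for *Yp2* in other barcodes at 1 week and 6 weeks. The 2 tested vitelline membrane genes (median -2.56) and the 1 chorion gene (-3.58) also fell, where other barcodes gave -1.94 and -6.62. Without the condition on the barred genes the yolk list and *Yp2* turned to 2.16 and the vitelline membrane list to 1.38. Mitochondrially encoded genes were lower at 6 weeks, with 3 of 13 past the fold and a median of -0.39 in gated cells and -0.39 in other barcodes. The median mitochondrial share of a gated cell was 5.40% at 1 week and 3.81% at 6 weeks.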

How the data were processed

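UMI counts per gene and barcode, which the authors deposited without normalization, were made by them with Cell Ranger 9.0.0 on BDGP6; per the labels the kit was version 4, and the study's methods also name an earlier one. The 33317 and 20224 deposited barcodes were filtered as stated. The study's own thresholds for cells are not given in the sources used here. Summed counts were 4844405 UMIs in gated cells at 1 week and 6548153 at 6 weeks. Counts were summed per library and divided by their total (CPM). Log2 ratios carry exact binomial 95% intervals, and levels exact Poisson ones. A gene was past the fold at an absolute log2 ratio of 0.5 with at least 100 UMIs, and no p-value was computed. For shares of cells with a UMI, cells were thinned to 5000 UMIs, which left 339 and 379 gated cells and 30 and 91 muscle barcodes, and shallower ones were left out. Doublets were scored against simulated sums of barcodes, marked at a preset 0.4% per 1000 deposited barcodes and removed only as an alternative. Genes named were those of the gate, the Notch, E(spl) and switch lists, the 10 highest and 10 lowest ratios with age (at least 200 UMIs, in 5% of gated cells of a library) and to other barcodes (in 25% of cells), the 5 furthest above and below the age ratio of other barcodes, and up to 4 abundant members of each other list. Named outside this rule, after their values were seen, were the single genes behind counts of 5 or fewer and those of the splits by *br*, *E(spl)m7-HLH* and *Ilp6*. Members, splits and lists were chosen with earlier results of these data known. Alternatives changed the filters, gate, thinning, gene minimum, fold, doublets, centring and averaging. Gene positions came from the BDGP6.54 annotation of Ensembl 115, and no sequences were used here. Scripts were tested on simulated data and ran in Python 3.11.15 with numpy 2.4.6, scipy 1.17.1, pandas 2.3.3 and scikit-learn 1.9.0.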

Additional observations from a re-analysis of the deposited data

Results flagged for a closer look

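2 genes stood on opposite sides of the other barcodes at the 2 ages. *fng*, which encodes the glycosyltransferase that modifies Notch, was above them at 1 week (log2 0.24) and below them at 6 weeks (-0.24), at 111 and 95.6 CPM in gated cells and 94.2 and 113 in other barcodes. *CG12822* was above them at 1 week (0.31) and below them at 6 weeks (-0.40). Neither difference was tested, since each age had 1 library.

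Signal of the same gene combination was also found in barcodes that the filters removed. Of 24186 removed barcodes at 1 week 6 had all 4 required genes and none of the barred genes, and of 10346 at 6 weeks 12 did. All of them exceeded the mitochondrial limit, with median shares of 27.5% and 24.1% and median depths of 2771 and 2888.5 UMIs.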

How the results depend on the processing

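No paired analysis was possible because each age had 1 library, and for the same reason no replicate could be left out. The share inside the gate (3.75% at 1 week, 3.91% at 6 weeks) was 5.07% and 4.54% with a mitochondrial limit of 10%, 2.44% and 3.01% with none, 1.60% and 1.91% with at least 2 UMIs of each required gene, 8.01% and 10.4% without the condition on barred genes, and 2.63% and 3.18% after thinning. The 161 genes that rose with age were 311 at a minimum of 30 UMIs, 60 at 300 UMIs and 19 at a log2 fold of 1. The 126 that fell were 400, 25 and 5, and 69 after thinning. Genes higher than in other barcodes numbered 724 and 579, and 139 and 88 at a fold of 1. At 6 weeks they were 941 after thinning and 354 against barcodes with *eya*. Genes lower than in other barcodes, 2332 and 2255, were 1026 and 1152 against barcodes with *eya*. The 21 higher mitosis genes were 9 at 1 week and 1 at 6 weeks at a fold of 1, and 9 at 6 weeks against barcodes with *eya*. The ratio with age changed sign without the condition on barred genes for *MtnA* (0.083), *Yp2* and the yolk list (2.16), the vitelline list (1.38) and the late follicle list (1.08). It changed sign after thinning for *vir-1* (-0.21) and *E(spl)m8-HLH* (-1.62), and in cells with under 3 UMIs of *br*, a setting chosen after seeing the data, for *CG3168* (0.055), *Kaz-m1* (-0.26) and *mib1* (0.062). Of the remaining values of single genes and list medians, 1733 stayed and 231 moved. For a single gene, moved means beyond its counting interval. List medians have no such interval and were judged by the size of their shift. The cause was not tested in any of these. Depth limits *E(spl)m5-HLH*, *E(spl)m8-HLH* and *E(spl)mdelta-HLH* to a few UMIs per library.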
